A study of Mus musculus with 8 samples.

Results

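The genes described here encode the proteins of the cytosolic ribosome. They were chosen by name: rows whose symbol starts with Rpl or Rps and continues as a ribosomal protein name (with the stalk genes Rplp0, Rplp1 and Rplp2 and with Rpsa), leaving out the Rps6k kinases and the rows named as pseudogenes by the ending -ps. The rule found 89 of the 55401 rows of the table. Of these, 43 were large subunit genes, 31 small subunit genes, 3 stalk genes, 7 paralogs of a core gene (Rpl3l, Rpl10l, Rpl22l1, Rpl39l, Rpl7l1, Rps27l and Rps4l) and 5 retrocopies annotated as processed pseudogenes. A mean normalized count of at least 10 over all muscles was asked of a gene before it was tested, and 80 of the 89 met it.

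The study sequenced total RNA of whole tibialis anterior (TA) muscle, with 4 samples labelled WT and 4 labelled mdx5cv. All were 6 months old and of the C57/Bl6 strain. Male mice were the rule in the study's methods, and the labels give no sex. The mdx5cv strain carries a mutation in Dmd, the gene for dystrophin, and is a model of Duchenne muscular dystrophy in which cycles of fiber damage and repair take place. The comparison asked how the dystrophic muscle differed from WT muscle of the same age and strain. The dystrophin mutation is present in every cell of the animal, and each library holds the RNA of a whole muscle.

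Ribosomal proteins are made in near equal numbers, since each ribosome holds a single copy of most of them. Their mRNAs start with a terminal oligopyrimidine (TOP) run, a C followed by further C and T letters, through which mTOR signaling adjusts their translation together. A few core proteins have a paralog with restricted expression, and the best known in striated muscle is Rpl3l, which takes the place of Rpl3 at the core of the large subunit in mature fibers.

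The start sites of 6 genes on which the results turn are shown to make that shared feature visible. Each line gives 10 bases before and 20 bases from the RefSeq start on (build GRCm38.p6, read 5′ to 3′ on the gene's strand), at the upstream start where RefSeq lists several. Capitals mark runs of 5 or more letters that begin with C and hold only C and T.
Rps27, chr3:90213629-90213658, minus strand: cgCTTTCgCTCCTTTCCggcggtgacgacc
Rps27l, chr9:66946076-66946105, plus strand: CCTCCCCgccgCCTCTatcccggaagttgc
Rpl22l1, chr3:28805498-28805527, plus strand: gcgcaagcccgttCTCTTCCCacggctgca
Rpl3l, chr17:24727816-24727845, plus strand: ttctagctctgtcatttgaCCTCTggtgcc
Rps6, chr4:86857348-86857377, minus strand: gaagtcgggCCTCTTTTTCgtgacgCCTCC
Rpl13a, chr7:45128726-45128755, minus strand: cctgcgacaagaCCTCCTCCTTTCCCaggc
Rps27, Rpl22l1, Rps6 and Rpl13a held a long run at or next to the start, and Rpl3l held only a short one downstream of it. Of the 89 genes, 64 had a RefSeq start sequence, and Rpl3 was not among them. A run of 8 or more such letters between 30 bases before and 50 bases after the start was present on the gene's strand in 50 of these 64 genes (78.1%), against 26.0% of all 27025 genes with a start sequence and 27.5% of the 69 mitochondrial ribosomal protein genes. On the opposite strand the share was 14.1% for the 64 genes and 29.2% for all genes. A match of letters is a description of the sequence and not evidence of a regulated site.

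The deposited values were read counts divided by a size factor per muscle (normalized counts), and the reads behind them could be recovered. Recovered reads summed to between 13175524 and 14921057 per muscle. Dmd itself, which checks the labels, had between 6169 and 8155 normalized counts in WT and between 3461 and 4400 in mdx5cv. Mitochondrially encoded genes took between 25.3% and 38.7% of the reads. The labels number the muscles as replicates without saying that each came from its own animal, so p-values measure the spread between these samples. In whole muscle, fewer cells of a type and less RNA per cell cannot be told apart.

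Ribosomal protein mRNA as a group took a small share of the library. The summed reads of the 89 genes made up between 0.488% and 0.583% of all reads in WT and between 0.523% and 0.732% in mdx5cv, so the groups overlapped. Without mitochondrially encoded genes the shares ran from 0.795% to 0.905% in WT and from 0.770% to 1.013% in mdx5cv. That overlap came from mdx5cv replicate 4 alone, and the other three mdx5cv muscles, at 0.784%, 0.770% and 0.774%, lay below the lowest WT muscle. On the normalized count scale the sums did not overlap: they lay between 82202 and 92650 in WT and between 71498 and 79492 in mdx5cv. The direction of the group as a whole therefore depended on the scale, whereas a few single genes stood apart on every scale used.

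Among the ribosomal protein genes tested, the one that rose most was Rpl3 (ENSMUSG00000060036, chromosome 15, 80077791 to 80091868, minus strand). It is the widely expressed form of the protein at the core of the large subunit. It had 327, 264, 307 and 416 normalized counts in WT replicates 1 to 4. In mdx5cv the counts were 681, 509, 582 and 1099.6. Every mdx5cv muscle lay above every WT muscle, and mdx5cv replicate 4 lay far above the other three. The log2 fold change was 1.08 with a standard error (SE) of 0.21 (limma, adjusted p = 0.00117), from a mean of 329 ± 64.0 (SD, n = 4) to 718 ± 264 (SD, n = 4). Without mdx5cv replicate 4 the log2 fold change was 0.85 (limma, adjusted p = 0.00124). The adjusted p lay between 1.03e-05 and 0.00864 over the 22 alternatives.

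Rpl3l, its muscle paralog (ENSMUSG00000002500, chromosome 17, 24727820 to 24736143, plus strand), did not rise with it. WT muscles had 1758, 2025, 1728 and 1619 normalized counts. The mdx5cv muscles had 1453, 1619.7, 1839 and 1271. The groups overlapped, and the log2 fold change was -0.21 (SE 0.12, limma, adjusted p = 0.182). That value was positive in sign with equal totals (0.14) and with centring on the ribosomal protein genes (0.06), and was not called under either.

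The balance of both forms does not depend on how libraries are scaled, because both are read in the same muscle. The Rpl3l count was 5.38, 7.66, 5.62 and 3.89 times the Rpl3 count in WT. It was 2.13, 3.18, 3.16 and 1.16 times the Rpl3 count in mdx5cv. The groups did not overlap. The mean log2 ratio, with 1 added to each count, stood at 2.45 ± 0.40 for WT muscles and at 1.16 ± 0.69 for mdx5cv muscles (SD, n = 4 each), a difference of -1.29 (exact permutation test, two-sided p = 0.0286, the smallest that 4 against 4 muscles allow). It was -0.98 without mdx5cv replicate 4. Per kilobase of annotated exon, Rpl3l stood at 1085 normalized counts and Rpl3 at 104 in WT, and at 941 and 226 in mdx5cv. The exon length of Rpl3 (3175 bases) exceeds that of Rpl3l (1643 bases), whereas transcript lengths of 1351 and 1375 bases are nearly equal, so the gap is wider per exon length than per transcript length. Rpl3 and Rpl3l shared no stretch of 50 bases, but 85.6% of the 50-base stretches of Rpl3 also occurred in 26 other annotated genes, so that reads of Rpl3 could be lost or gained in counting, while none of Rpl3l did. Which of the 2 mRNAs was the more abundant was therefore not settled. The rows Rpl3-ps1 and Rpl3-ps2 held at most 18.9 and 2.21 normalized counts in any muscle.

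**Figure D1:**
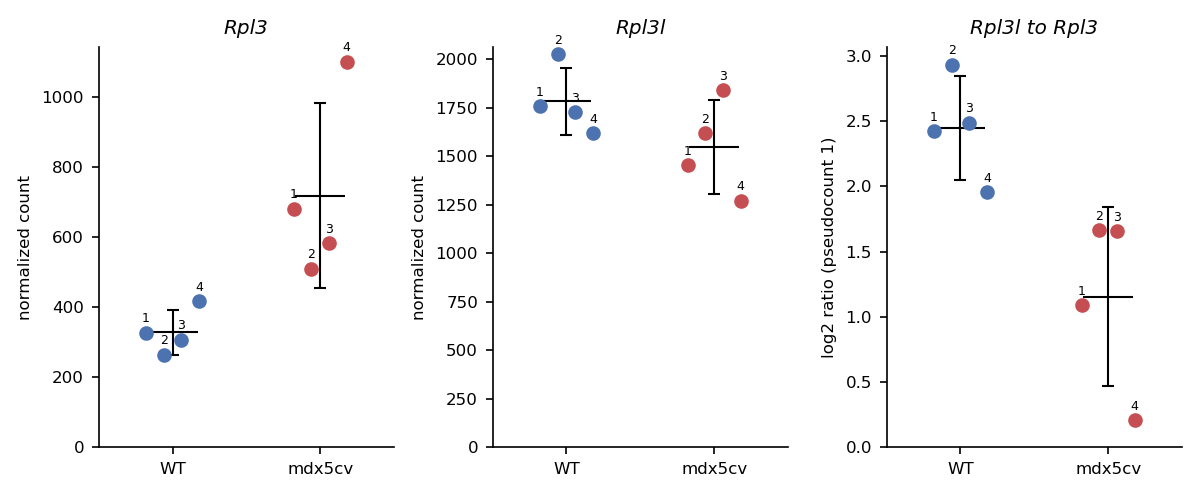
Normalized counts of Rpl3 and Rpl3l and the log2 ratio of Rpl3l to Rpl3 (vertical axes) in WT and mdx5cv TA muscle (horizontal axis). Points are muscles marked by replicate number, with the mean and SD in black: Rpl3 was higher in all 4 mdx5cv muscles, Rpl3l overlapped between the groups, and the ratio fell from a mean of 2.45 to 1.16.

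The muscle with the most Rpl3 also had the highest summed levels of several marker lists, and the part of cell composition in the Rpl3 result was not tested. Summed macrophage markers lay between 547 and 806 normalized counts in WT and between 3986 and 9666 in mdx5cv, with all 8 genes higher, and mdx5cv replicate 4 held the top value. Regenerating fiber and myoblast markers, all 6 of them higher, summed to between 118 and 143 in WT, where Mymx was at 0 in every muscle, and to between 2175 and 8502 in mdx5cv, again highest in replicate 4. Fibroblast markers, of which 5 of 6 were higher, ran from 6387 to 9689 and from 22460.4 to 41026. Slow fiber markers, with 3 of 4 higher, ran from 54.8 to 207 and from 388 to 1116. None of the 7 lymphocyte markers reached the level for testing, with sums between 1.11 and 9.87 in WT (Cd3e, Cd8a and Nkg7 at 0 in every muscle) and between 21.3 and 48.7 in mdx5cv.

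Other lists were lower in mdx5cv. Fast fiber markers, 5 of 7 lower, summed to between 905230 and 1035960 normalized counts in WT and to between 549905 and 870629 in mdx5cv. All 4 endothelial markers were lower (2394 to 2882 in WT and 1438 to 1878 in mdx5cv). Adipocyte markers, 3 of 4 lower, ran from 58.4 to 464 and from 14.8 to 51.9, and erythrocyte markers, 3 of 5 lower, from 694 to 1240.0 and from 342 to 733.

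Across the whole group, 2 genes were called higher (Rpl3 and Rpl13a), 27 were called lower and 51 were not called, at an adjusted p under 0.05. Among all 13677 genes tested, 20.9% were called higher and 20.1% lower, so that the 2.50% of ribosomal protein genes called higher lay below the background and the 33.8% called lower lay above it. The log2 fold change was negative for 72 and positive for 8 of the 80 genes, with a median of -0.21 beside 0.00 for all genes tested. The falls were small: 73 of the 80 values lay within 0.5 of 0. With a log2 change of 1 or more in either direction also required, Rpl3 alone was called higher and no gene was called lower, against 10.3% and 3.27% of all genes. Values of WT and mdx5cv muscles did not overlap for 27 of the 80 genes in the lower direction and for 1 in the higher, against 19.8% and 20.3% of all genes.

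**Figure D2:**
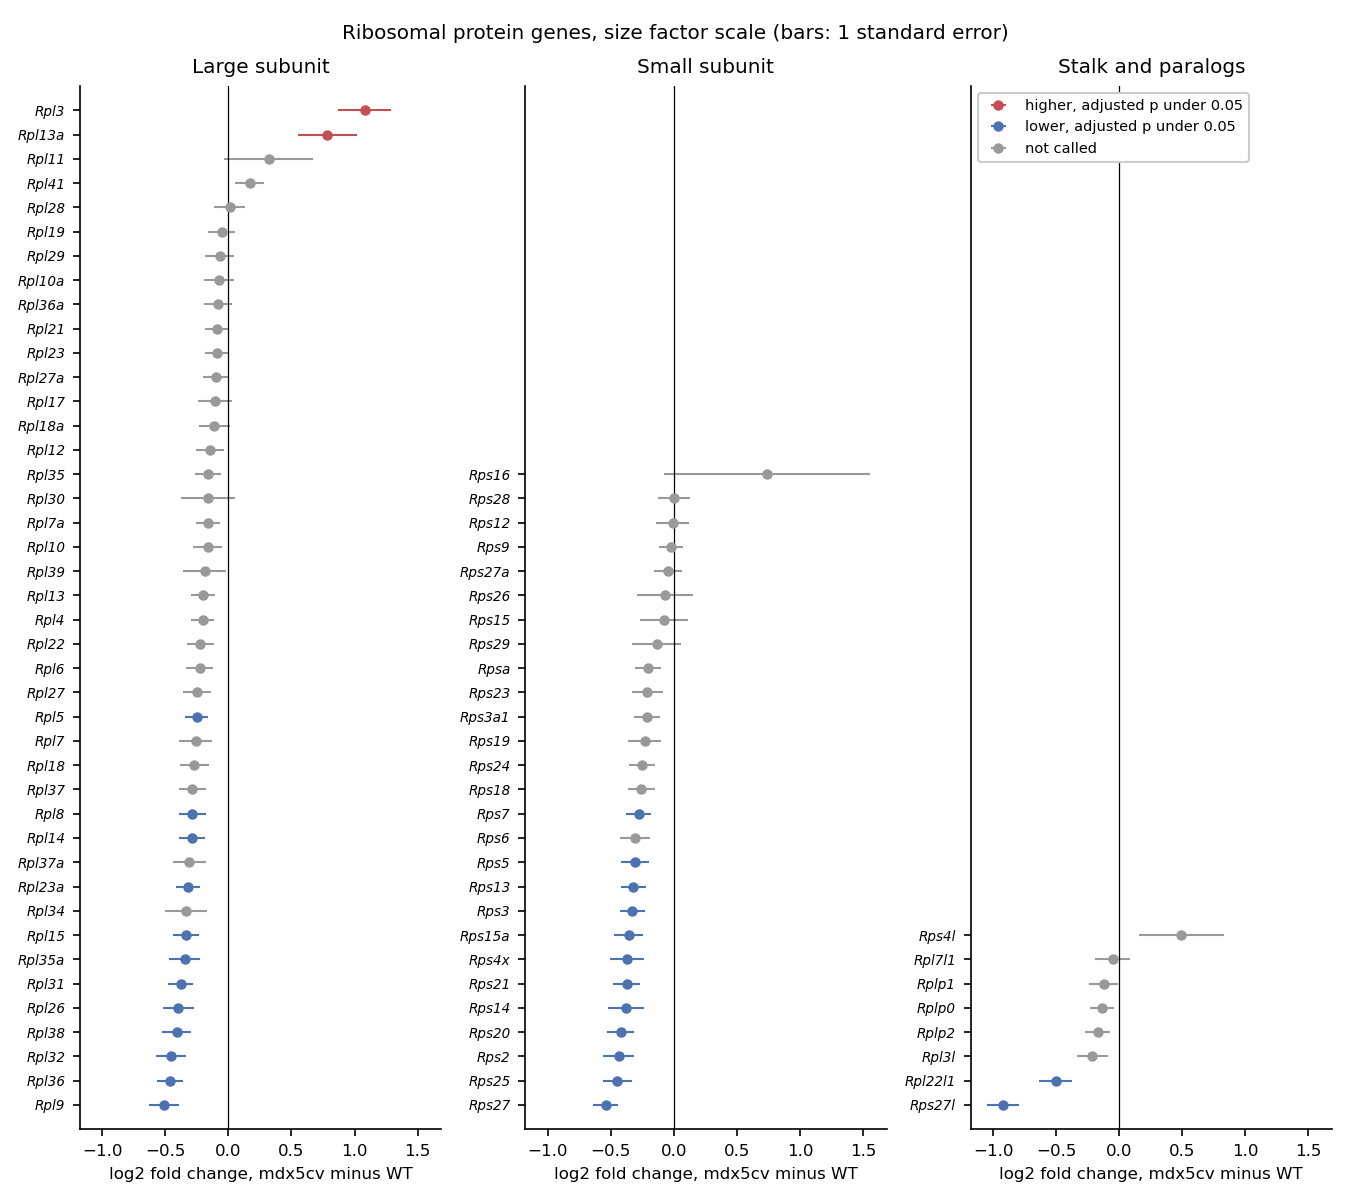
Log2 fold change (horizontal axis, mdx5cv minus WT on the size factor scale, bars of 1 SE from limma) of 77 of the 80 ribosomal protein genes tested, by subunit. Most genes sit between -0.5 and 0 on this scale, and the group's median moves to 0.14 when libraries are scaled to equal totals. Rpl3 and Rpl13a are called higher and Rps27l lower on both. Rps16 (0.74, and 1.09 with equal totals) and Rps4l (0.49 and 0.82) also sit to the right, but neither is called on either.

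Whether the group as a whole was lower depended on the scaling. With TMM factors the median was -0.21, with 2 genes called higher and 25 lower. With centring on the median of all genes it was -0.31, with 2 higher and 44 lower. Of all 13677 genes tested, 2874 were called higher and 2701 lower with TMM factors, and 2426 and 3469 with that centring. When libraries were scaled to equal totals, the median of the ribosomal protein genes was 0.14 and that of all genes 0.36. On that scale 4 ribosomal protein genes were called higher and 1 lower, while 39.8% of all genes tested were called higher and 6.00% lower. Relative to the median of all genes, the ribosomal protein median stood at -0.22 on the size factor scale and at -0.21 with equal totals. Once GC content and length were corrected for, however, it was 0.00 beside 0.01 for all genes, with 3 genes called higher and 5 lower. Of the 13667 genes in that correction, 2721 were called higher and 2642 lower. Ribosomal protein mRNAs were short, with a median transcript length of 944.5 bases against 3118 for all genes tested, and their median GC content was 51.7% against 49.6%. Across the 80 genes, which share libraries and scaling, the log2 fold change had a Spearman correlation of 0.24 with GC content. It was 0.03 with transcript length. Across 13667 of all genes tested, the values were 0.11 with GC content and 0.13 with transcript length.

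**Figure D3:**
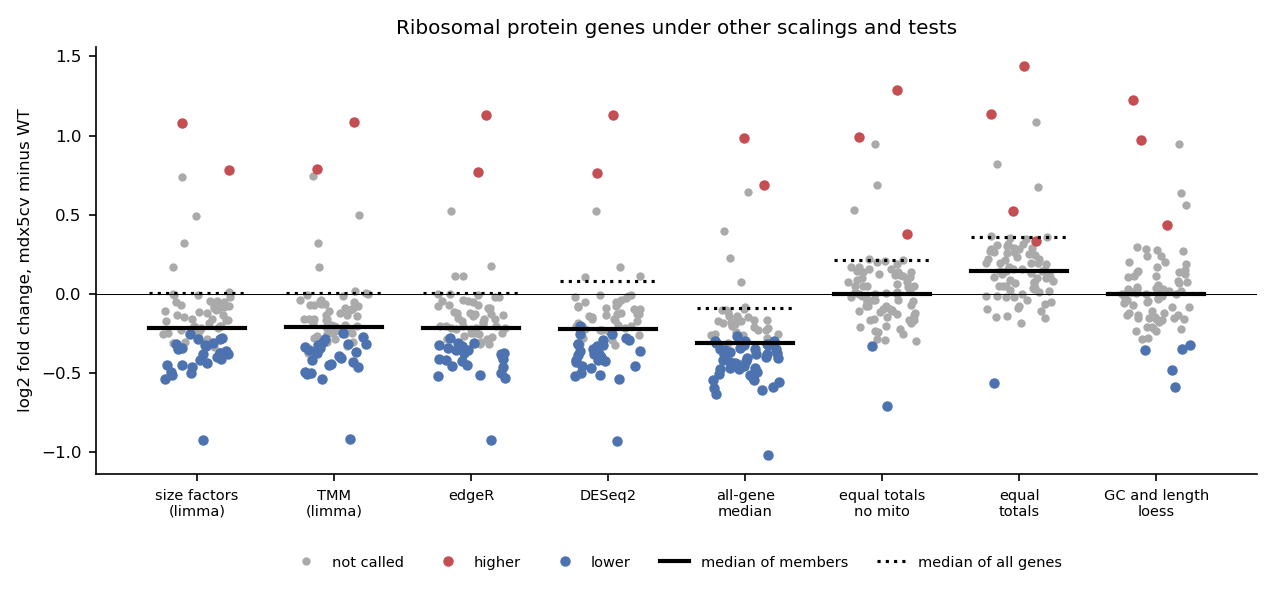
Log2 fold changes (vertical axis, mdx5cv minus WT) of the 80 ribosomal protein genes under 8 scalings or tests (horizontal axis), with called genes colored, the median of these genes as a solid line and that of all genes as a dotted line. The solid line moves from -0.21 with size factors to 0.14 with equal totals and to 0.00 after correction for GC content and length. The same 2 genes are called higher and the same 1 is called lower in all 8.

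Of the 42 large subunit genes tested, 2 (4.76%) were called higher and 12 (28.6%) lower, beside 20.9% and 20.1% of all genes. Their median log2 fold change was -0.20 (0.15 with equal totals). Rpl13a, whose protein is also known outside the ribosome as part of a complex that silences inflammatory mRNAs, was the second gene called higher. It had 35.5, 35.1, 46.4 and 21.2 normalized counts in WT and 62.1, 46.2, 63.9 and 62.3 in mdx5cv. WT replicate 3 and mdx5cv replicate 2 nearly coincided, and the log2 fold change was 0.79 (SE 0.23, limma, adjusted p = 0.0160, range 0.00221 to 0.0435 over the alternatives). These counts were low for a core gene, with 16.3 normalized counts per kilobase of exon in WT, and among the core genes Rpl24 and Rps10 alone lay lower. In the annotation 35.4% of the exon bases of Rpl13a lie under another gene on the same strand, among them Gm45713, which was at 0 in every muscle. The value is that of the reads assigned to Rpl13a alone.

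The largest falls in the large subunit were those of Rpl9, Rpl36 and Rpl32. Rpl9, which lies near the base of the stalk, had 1199.9, 1700.2, 1277 and 1341 normalized counts in WT and 926, 910.3, 964 and 1044 in mdx5cv. The groups did not overlap, and the log2 fold change was -0.51 (SE 0.12, limma, adjusted p = 0.00355). Rpl36 had 584, 672, 667 and 747 in WT and 479, 525, 488 and 439 in mdx5cv, without overlap (log2 fold change -0.46, SE 0.11, limma, adjusted p = 0.00368). Rpl32 had 1054, 1333, 1001 and 1004 in WT and 767, 771, 729 and 933 in mdx5cv, also without overlap (log2 fold change -0.45, SE 0.12, limma, adjusted p = 0.00867). None of the 3 was called with equal totals, where their log2 fold changes were -0.15, -0.11 and -0.09. After correction for GC content and length Rpl9 was still called lower, at -0.48 (limma, adjusted p = 0.00520), whereas Rpl36 (-0.22) and Rpl32 (-0.21) were no longer called (limma, adjusted p = 0.0780 and 0.192).

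The stalk, through which the large subunit recruits and activates elongation factors, held the pair of mRNAs with the highest levels per length, Rplp1 and Rplp0. Rplp1 had the highest level per length of all 89 genes, with 3714 normalized counts per kilobase in WT and 3388 in mdx5cv. Rplp0 stood at 3809.8 ± 326 normalized counts in WT and 3460.0 ± 101 in mdx5cv (SD, n = 4), with a log2 fold change of -0.14 (SE 0.10, limma, adjusted p = 0.291). Rplp1 and Rplp2 had log2 fold changes of -0.12 and -0.17. None of the 3 was called, and all 3 values turned positive with equal totals (0.22, 0.24 and 0.19).

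Of the 30 small subunit genes tested, none was called higher and 13 (43.3%) were called lower, beside 20.9% and 20.1% of all genes. Their median log2 fold change was -0.25 (0.10 with equal totals). Rps27, a zinc-binding protein on the surface of the small subunit, fell most. It had 996, 1147, 1032 and 1108 normalized counts in WT and 745, 687, 687 and 830.3 in mdx5cv, without overlap. The log2 fold change was -0.54 (SE 0.10, limma, adjusted p = 0.000940), and -0.18 with equal totals (adjusted p = 0.298) and -0.24 after the GC content and length correction (adjusted p = 0.122). Rps25, which is needed by several viral and cellular internal ribosome entry sites, had 1356, 1796, 1359 and 1327 in WT and 1069, 1058, 963 and 1159 in mdx5cv, with WT replicate 2 on top and no overlap (log2 fold change -0.45, SE 0.12, limma, adjusted p = 0.00750). Rps25 was not called with equal totals (-0.09, adjusted p = 0.603) or after the GC content and length correction (-0.28, adjusted p = 0.0696).

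The best known small subunit proteins moved less. Rps6, the substrate of S6 kinase and a common readout of mTOR signaling, had 609.7, 786, 614 and 599 normalized counts in WT and 504, 481, 501 and 619 in mdx5cv. Only mdx5cv replicate 4 reached into the WT range, and the log2 fold change of -0.31 was not called (SE 0.12, limma, adjusted p = 0.0570). Rpsa, also known as a laminin receptor, had a log2 fold change of -0.20 (SE 0.10, limma, adjusted p = 0.131). Both were positive with equal totals, at 0.05 and 0.16. These are levels of mRNA, and neither translation nor phosphorylation was measured.

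Apart from Rpl3l, the paralogs included the gene that fell most among the ribosomal protein genes tested. Rps27l, a near copy of Rps27 that is known as a target of p53, had 419, 508, 385 and 374 normalized counts in WT. In mdx5cv it had 208, 219.8, 201 and 257. The groups were well separated, with the lowest WT muscle above the highest mdx5cv muscle by more than the range within mdx5cv. The log2 fold change was -0.92 (SE 0.13, limma, adjusted p = 0.000105), from 422 ± 60.8 to 221 ± 24.7 (SD, n = 4), and it was -0.56 with equal totals (limma, adjusted p = 0.00800). The adjusted p lay between 4.08e-09 and 0.00800 over the alternatives. The mean log2 ratio of Rps27l to Rps27 stood at -1.35 ± 0.18 for WT muscles and at -1.73 ± 0.09 for mdx5cv muscles (SD, n = 4 each), without overlap and with no test made of it. Rps27l and Rps27 shared no stretch of 50 bases.

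Rpl22l1, the paralog of the RNA-binding protein Rpl22, had 253, 269.8, 218 and 216 normalized counts in WT and 194, 142, 165 and 174 in mdx5cv, without overlap. The log2 fold change was -0.50 (SE 0.13, limma, adjusted p = 0.00773), but -0.15 with equal totals and -0.18 after the GC content and length correction, where it was not called. Rpl22 itself had a log2 fold change of -0.22 (SE 0.11, limma, adjusted p = 0.110), which turned to 0.13 with equal totals. In the Rps4x pair, Rps4x, the X-linked form, was called lower at -0.37 (SE 0.13, limma, adjusted p = 0.0409) and stood at -0.01 with equal totals, with the call lost in 11 of the 22 alternatives, and Rps4l, a transcribed pseudogene with at least 6.58 and at most 16.04 normalized counts per muscle, was not called (0.49, SE 0.34, limma, adjusted p = 0.263). Rpl7l1 (-0.05) and Rpl7 (-0.26), and Rpl10 (-0.16) and Rpl39 (-0.19), were not called either, and all 4 values turned positive with equal totals. A pair of paralogs known for expression in the testis was at or near 0: Rpl10l had no count in any muscle, and Rpl39l had at most 1.85 normalized counts.

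A pair of core genes was nearly absent from the counts, although every ribosome holds their proteins. Rpl24 had between 2.29 and 13.8 normalized counts per muscle, and Rps10 between 2.29 and 15.2. In the annotation 47.0% of the exon bases of Rpl24 and 20.6% of those of Rps10 lie under another gene on the same strand (Gm28037 and RPS10-NUDT3), the former at 0 in every muscle. Rps10 had 2.29, 5.48, 5.53 and 8.47 in WT and 14.8, 14.2, 11.7 and 15.2 in mdx5cv, without overlap. Its mean lay under the level for testing, however, and it could be called higher only in settings that did not ask for that level. Of the 80 genes tested, 78 shared at least 1 stretch of 50 bases with another annotated gene, and 35 shared more than 50% of their stretches, which limits how exactly reads could be assigned to any of them.

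The map of genes over the 8 muscles showed that muscles of the same group differed as well. WT replicate 2 held the highest WT value for 51 of the 80 genes and mdx5cv replicate 4 the highest mdx5cv value for 57. In WT replicate 2, however, 10 genes lay more than 0.5 log2 units below the median of the other WT muscles, among them Rpl11, Rpl17, Rpl30, Rps4l, Rps15, Rps16, Rps26, Rps28 and Rps29. Rpl11, which binds the p53 regulator Mdm2, had 181 normalized counts there against 652, 809 and 768 in the other WT muscles and between 623 and 688 in mdx5cv. Rps16 varied widely in both groups, with 185, 6.58, 86.2 and 227 in WT and 66.7, 239.6, 154 and 84.7 in mdx5cv. Without WT replicate 2 the same test called 2 genes higher and 25 lower, and without mdx5cv replicate 4 it called 2 higher and 34 lower. It called 17 lower without mdx5cv replicate 1 or without mdx5cv replicate 2, and 18 without mdx5cv replicate 3. Of all 13677 genes tested, 2743 were called lower with every muscle in. That number was 2578 without WT replicate 2 and 2293 without mdx5cv replicate 4. It was 2291, 2507 and 2506 without mdx5cv replicates 1, 2 and 3.

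**Figure D4:**
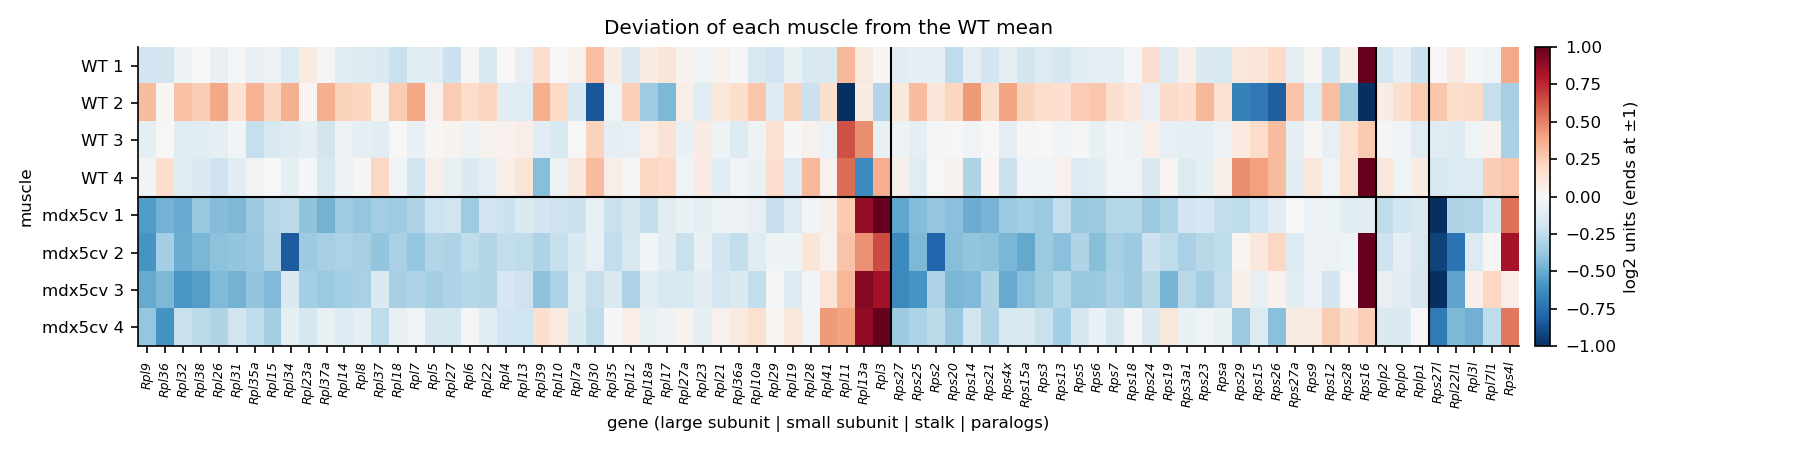
Deviation of each muscle (vertical axis) from the WT mean for 77 of the 80 ribosomal protein genes tested (horizontal axis), in log2 units on the size factor scale, with colors ending at 1 in either direction. The mdx5cv rows are mostly blue on this scale, Rpl3 and Rpl13a are red in all 4 of them, and WT replicate 2 shows a set of dark blue genes, Rpl11 and Rps16 among them.

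Ribosomal proteins that the naming rule leaves out were also read. Fau, which encodes a ribosomal protein fused to a ubiquitin-like protein, had a log2 fold change of 0.16 (SE 0.11, limma, adjusted p = 0.260). Rack1, a scaffold on the head of the small subunit, had -0.25 (SE 0.11, limma, adjusted p = 0.0964). Rpl36al, an intronless copy, had at most 8.85 normalized counts and was not tested. Neither Fau nor Rack1 was called on this scale, and with equal totals Fau was called higher at 0.52 (limma, adjusted p = 0.0109).

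The mitochondrial ribosomal proteins, which form the separate ribosome that translates mitochondrial mRNAs, had a lower median than the cytosolic ones. Of 77 tested, 55 (71.4%) were called lower and none higher, beside 20.1% and 20.9% of all genes. Their median log2 fold change was -0.50 against -0.21 for the cytosolic genes. Mrps28 had 353, 435, 305 and 340.0 normalized counts in WT and 142, 238, 185 and 141 in mdx5cv (log2 fold change -1.04, SE 0.17, limma, adjusted p = 0.000394). Mrpl55 and Mrpl57 followed at -1.01 and -0.79 (limma, adjusted p = 0.000151 and 0.000721). With equal totals the median of the mitochondrial set was -0.14, with 9 genes called lower and none higher, beside 6.00% and 39.8% of all genes. After the GC content and length correction it was -0.38, with 41 called lower and 1 higher. Of the 13667 genes in that correction, 2642 were called lower and 2721 higher. The difference between these 2 sets of genes was not tested.

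Genes of ribosome assembly were mixed. Of 50 ribosome biogenesis genes, 1 was called higher and 13 lower, with a median of -0.10 (0.25 with equal totals, where 13 were called higher and 2 lower). The 26.0% called lower stood beside 20.1% of all genes, and with equal totals the share of all genes called was 39.8% higher and 6.00% lower. Npm1, a nucleolar chaperone of ribosome assembly, was the one called higher, with 615, 488, 563 and 567 normalized counts in WT and 680.0, 743, 648 and 723 in mdx5cv (log2 fold change 0.33, SE 0.10, limma, adjusted p = 0.0218). Nop10, a part of the complexes that turn uridine of rRNA into pseudouridine, had 237, 349, 242 and 251 in WT and 138, 151, 156 and 138 in mdx5cv (log2 fold change -0.87, SE 0.14, limma, adjusted p = 0.000309). Rrn3, which brings RNA polymerase I to the rRNA genes, was called lower at -0.70, and Pno1, an assembly factor of the small subunit, at -0.62.

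Among 16 elongation factor and other TOP mRNAs, 5 were called higher and 4 lower, beside 20.9% and 20.1% of all genes, with a median of -0.0048. With equal totals 8 were called higher and 1 lower, beside 39.8% and 6.00% of all genes, and the median was 0.35. Vim, the intermediate filament vimentin of fibroblasts, immune cells and immature fibers, had 768, 872, 745 and 896 normalized counts in WT and 3288, 2773, 2509 and 5299.6 in mdx5cv (log2 fold change 2.02, SE 0.19, limma, adjusted p = 5.86e-06). Eef1a1, the form of elongation factor eEF1A that adult muscle fibers replace with Eef1a2, had 2524, 3702, 2543 and 2171 in WT and 6265, 5447, 5368 and 10134 in mdx5cv (log2 fold change 1.29, SE 0.20, limma, adjusted p = 0.000291). Both were highest in mdx5cv replicate 4, as was Rpl3. Hnrnpa1, a TOP mRNA for an RNA-binding protein, was called higher at 0.91. Eef2k, the kinase that inhibits elongation, and Eef1g and Eef1d, subunits of the exchange factor of eEF1A, were called lower at -0.71, -0.49 and -0.44, and of these only Eef2k was also called with equal totals (-0.36, limma, adjusted p = 0.0417).

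Of 22 genes tested in the mTOR and growth control list, 2 were called higher and 3 lower, beside 20.9% and 20.1% of all genes. Myc, a transcription factor that drives ribosome production, had 20.6, 20.8, 26.5 and 32.8 normalized counts in WT and 35.2, 46.2, 37.8 and 57.5 in mdx5cv (log2 fold change 0.79, SE 0.23, limma, adjusted p = 0.0152). Rptor, the defining subunit of mTOR complex 1, was called higher at 0.31. Rps6ka2, a ribosomal S6 kinase of the RSK family, Tsc1, which restrains mTOR complex 1, and Rictor, a subunit of the other mTOR complex, were called lower at -0.45, -0.35 and -0.30. With equal totals 8 genes of the list were called higher and none lower, beside 39.8% and 6.00% of all genes.

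**Figure D5:**
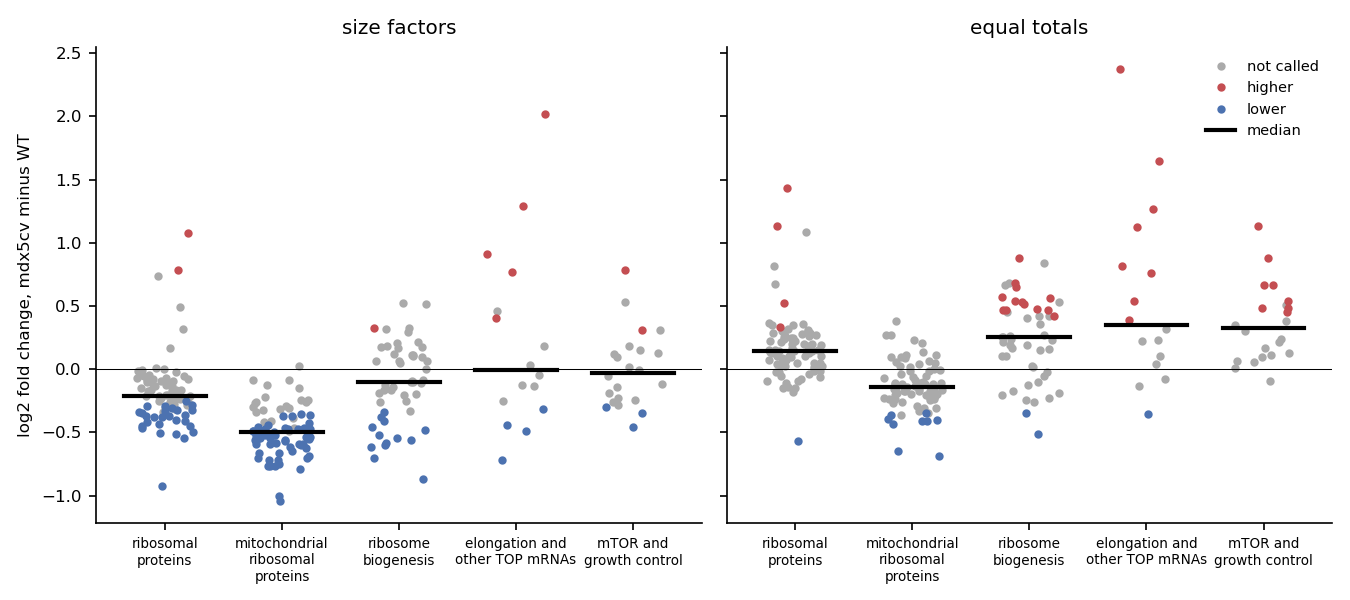
Log2 fold changes (vertical axis, mdx5cv minus WT) of the ribosomal protein genes and 4 related lists (horizontal axis) with size factors (left) and equal totals (right), called genes colored and list medians as lines. The median of the mitochondrial ribosomal proteins is the lowest of the 5 on both scales (-0.50 and -0.14), and that of the cytosolic ribosomal proteins is -0.21 on the left and 0.14 on the right.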

How the data were processed

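RNA-seq values of TA muscle in 4 WT and 4 mdx5cv samples were used. The labels name Trizol RNA and a stranded total RNA kit. According to the submitters' processing notes, FastQC, Trim Galore 0.6.4, STAR 2.6.0c, SAMtools 1.9, featureCounts, MultiQC 1.6, DESeq2 1.26.0 and R 3.6.2 were used with build mm10. The annotation release and the strand setting of the counting were not given in the sources used here. The deposited signal is a table of normalized counts, which the authors made by dividing gene counts by DESeq2 size factors. In every column the smallest value above 0 was taken as 1 read, and all values (100%) came out as whole reads within 0.001. No column of the table was left out.

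The main test was limma 3.58.1 with a variance trend on log2(normalized count + 1), over the 13677 genes with a mean of at least 10, with Benjamini-Hochberg adjustment over all of them and a threshold of 0.05. Fold changes are on that log2 scale, which understates changes of low genes. A test for normalized values replaced a count test as the main one, and the recovered reads were also tested with edgeR 4.0.16 and with DESeq2 1.42.0. The tests were first checked on simulated data. The ratio of Rpl3l to Rpl3 was tested with scipy 1.17.1 by an exact permutation test. Gene positions, exon lengths and shared 50-base stretches came from GENCODE M21 (mm10), in which all 89 genes were found by identifier, and start sequences from RefSeq (GRCm38.p6).

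Genes were named by rule: the paralog pairs, the stalk genes, Rpsa, Rps6, the 8 called genes with the largest change in each direction, the highest and lowest level per length among the genes tested (Rplp1 and Rps4l), Fau, Rack1, Rpl36al and, of each related list, the 3 called genes with the largest rise and fall. Rpl24, Rps10, Rps16, Rpl11 and the genes listed with them, Rpl41 and Rps9, and those in the closing section, were named after their values were seen. Some genes that the rule or the counts include are not reported here by name. The members, lists and tests were chosen with earlier results of these data known. Alternatives were other pseudocounts, filters, scalings, tests and each muscle left out, and 2 were added after seeing the data: centring on the ribosomal protein genes and a loess correction (span 0.5) for GC content and transcript length.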

Additional observations from a re-analysis of the deposited data

Results flagged for a closer look

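In each group of 4 muscles, a value was marked when the gap between it and its nearest neighbor was too large a part of the range by Dixon's test at the 95% level. This was done for 77 ribosomal protein genes and the Rpl3l to Rpl3 ratio in both groups, 156 sets in all, and chance marks about 1 in 20 of them, or 7.80. It marked 19, of which 10 were in WT replicate 2 and 6 were high values of mdx5cv replicate 4. Genes in the same muscle share its library and scaling, so the marks are not independent. Setting 19 beside 7.80 is therefore no test of an excess. All values below are log2(normalized count + 1).

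WT replicate 2 was the lowest WT muscle for Rpl11 (7.51), Rpl17 (9.31), Rpl30 (8.49) and Rps26 (8.26). The same muscle was the highest for Rpl14 (10.59), Rpl34 (9.41), Rps23 (10.28), Rps25 (10.81), Rps27a (9.75) and Rps6 (9.62).

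In mdx5cv, replicate 4 was the highest muscle for Rpl14 (10.22), Rpl18 (9.72), Rps3 (10.50), Rps9 (10.28), Rpsa (11.31) and Rplp1 (10.85). Replicate 2 was the lowest for Rpl13a (5.56) and the highest for Rpl28 (9.42), and replicate 1 was the lowest for Rpl7a (10.41). Of these genes, Rpl14, Rps25 and Rps3 were called lower and Rpl13a higher in the comparison.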

How the results depend on the processing

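Rpl3 and Rpl13a were called higher and Rps27l lower under all 22 alternatives, and the other calls among ribosomal protein genes depended on scaling. At an adjusted p under 0.05, 2 genes were higher and 27 lower. With equal totals the counts were 4 and 1, with equal totals without mitochondrially encoded genes 3 and 2, with centring on the median of all genes 2 and 44, and without the variance trend 2 and 17. After the alternatives added later they were 3 and 1 when the ribosomal protein genes were centred, and 3 and 5 when GC content and length were corrected. Requiring a log2 change of 1 left 1 and 0. The median of -0.21 became 0.14 with equal totals, -0.0030 without mitochondrially encoded genes, -0.31 with centring on all genes, 0.058 with centring on the ribosomal protein genes and -0.0002 after the GC and length correction. The cause was not tested. Leaving out single muscles gave 17 to 34 lower genes and 2 higher genes each time, with medians from -0.26 to -0.19. The 17 came without mdx5cv replicate 1 and also without mdx5cv replicate 2. Over all genes tested, 5444 were higher and 820 lower with equal totals, and 4137 and 1398 without mitochondrially encoded genes. With centring on all genes they numbered 2426 and 3469, and without the variance trend 2708 and 2465. Centring on the ribosomal protein genes gave 4604 and 842 of all genes, and the GC and length correction 2721 and 2642. Leaving out single muscles gave 2248 to 2625 lower among all genes.

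For the Rpl3l to Rpl3 log2 ratio, the replicate block gave -1.29 (exact paired sign-flip test, p = 0.125) and leaving out a muscle gave -1.46 to -0.98 (exact permutation test, p = 0.0571). These are the smallest p-values that those designs allow, so they do not bear on stability. The replicate block called 2 ribosomal protein genes higher and 26 lower. Muscles with the same number deviated from their group means with correlations between 0.0309 and 0.1459. For muscles with different numbers the correlations lay between -0.1482 and 0.0741. The labels name no pairs, so the muscles were not treated as pairs, and whether the same number stands for a shared batch was not tested.

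The mitochondrial ribosomal proteins had 55 genes called lower and none higher. With equal totals 9 were called lower, with equal totals without mitochondrially encoded genes 23, and with centring on the ribosomal protein genes 14. Centring on the median of all genes gave 67 lower, and the GC and length correction gave 41 lower and 1 higher. There were 2 lower with a log2 change of 1, and 48 to 58 with a muscle left out. Ribosome biogenesis had 1 gene called higher and 13 lower, against 13 and 2 with equal totals and 7 and 2 with centring on the ribosomal protein genes. In both directions together it had 0 calls with a log2 change of 1 and 10 to 14 with a muscle left out. The elongation and TOP list had 5 genes called higher and 4 lower, against 8 and 1 with equal totals and 7 and 0 with centring on the ribosomal protein genes. In both directions together it had 2 calls with a log2 change of 1 and 8 to 10 with a muscle left out. The mTOR list had 2 genes called higher and 3 lower, against 8 and 0 with equal totals and 7 and 0 with centring on the ribosomal protein genes. In both directions together it had 3 calls with no filter or no variance trend and 0 with a log2 change of 1. With a muscle left out it had 3 to 5 (3 without WT replicate 1, WT replicate 3, mdx5cv replicate 1 or mdx5cv replicate 3). The direction of most calls thus turned with scaling in the ribosome biogenesis and mTOR lists. The mitochondrial ribosomal proteins had more genes called lower than higher under each of these scalings. The elongation and TOP list had more called higher than lower.

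Among the ribosomal protein genes named by the rule, the sign of 34 log2 fold changes that were not called turned, none of them to a call. With equal totals these were Rpl10 (0.19), Rpl22 (0.13), Rpl39 (0.17), Rpl3l (0.14), Rpl7 (0.10), Rpl7l1 (0.31), Rplp0 (0.22), Rplp1 (0.24), Rplp2 (0.19), Rps6 (0.051) and Rpsa (0.16). With equal totals without mitochondrially encoded genes they were Rpl10 (0.047), Rpl39 (0.025), Rpl7l1 (0.16), Rplp0 (0.076), Rplp1 (0.089), Rplp2 (0.041) and Rpsa (0.0096). With centring on the ribosomal protein genes they were Rpl10 (0.11), Rpl22 (0.050), Rpl39 (0.086), Rpl3l (0.059), Rpl7 (0.014), Rpl7l1 (0.22), Rplp0 (0.14), Rplp1 (0.15), Rplp2 (0.10) and Rpsa (0.071). After the GC and length correction they were Rpl10 (0.11), Rpl39 (0.14), Rplp1 (0.14) and Rplp2 (0.020). With a muscle left out, Rpl7l1 ranged from -0.14 to 0.031, with 0.031 without WT replicate 4 and 0.018 without mdx5cv replicate 4. The remaining values of the ribosomal protein genes named by the rule gave 410 same calls, 33 lost and 6 gained. Genes named after their values were seen, such as Rps9 and Rpl41, and genes of the other lists, such as Fau and Rack1, are outside these counts. In all, 9 of the 89 genes, Rpl24 and Rps10 among them, had a mean normalized count under 10 and were not tested.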

Other observations

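The rows left out by the naming rule as pseudogenes with the ending -ps numbered 319, and 8 of them had a mean of at least 10 normalized counts. Their summed normalized counts lay between 308 and 394 in WT and between 286 and 477 in mdx5cv, so the groups overlapped. Among the 80 ribosomal protein genes tested, 24 overlap a gene in the annotation whose symbol names it as a small nucleolar RNA (Snora or Snord). Rpl3 (Snord43 and Snord83b) and Rpl13a (Snord32a, Snord33, Snord34 and Snord35a) are among them, as are 6 of the 27 genes called lower. Small nucleolar RNA genes under other symbols were not counted. Rpl41, which encodes the shortest ribosomal protein, had 894, 1107, 952 and 1021 normalized counts in WT and 1034, 1023, 1088 and 1334 in mdx5cv. It was not called on the size factor scale (log2 fold change 0.17, limma, adjusted p = 0.254) but was called higher with equal totals (0.53, limma, adjusted p = 0.0112), with equal totals without mitochondrially encoded genes (0.38), and after both corrections added later. Rps9 was the fourth gene called higher with equal totals (0.34, limma, adjusted p = 0.0450).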
